A study of Mus musculus with 6 samples.

Results

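The nuclear pore complex and the transport receptors that pass through it were examined in cultures described as stem-like prostate cancer cells from TRAMP mice. Members were the genes of the deposited array table whose symbol names a nucleoporin (Nup, Ndc1, Pom121, Aaas), an importin (Kpna, Kpnb, Ipo, Tnpo), an exportin (Xpo, Cse1l) or a gene of the Ran system (Ran, Rangap1, Rcc1, Ranbp). The rule found 48 genes, each with 1 row, among 9490 genes tested. RefSeq lists 61 protein-coding mouse genes with such symbols, and the 13 without a row of their own, among them Tpr, Seh1l, Nup210, Ranbp2, Kpna7 and Xpo5, are not analysed here.

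TRAMP is a transgenic strain in which a viral oncogene under a prostate-specific promoter drives intraepithelial neoplasia and, later, neuroendocrine tumours, so all 6 cultures come from mice that carry the transgene and none is from a normal prostate. There were 3 TNE samples, from mice with neuroendocrine tumours whose age is not given, and 3 TPIN samples, from mice 10 to 11 weeks old with intraepithelial neoplasia. The groups follow titles and cell type labels, while a free-text field names intraepithelial neoplasia for all 6 samples. All were grown without serum with EGF and FGF2, and total RNA was hybridised to single-colour arrays. Values are RMA expression on a log2 scale, given per array in the order of replicates 1 to 3 or as mean ± SD over the 3 arrays of a group. Differences are log2 differences, TNE minus TPIN, with their standard error (SE) and an adjusted p from limma over all 9490 genes, called at 0.05. Separate mice or cultures behind the 3 samples of each group are not stated, and the p-values then rest on a spread between samples that can be technical in part.

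The arrays correlated at 0.825 to 0.917 within TNE, 0.842 to 0.905 within TPIN and 0.549 to 0.733 between the groups, over all rows. Array medians lay between 8.82 and 9.10 in TNE and between 8.98 and 9.03 in TPIN. Of the epithelial markers looked for, only the keratins Krt8 and Krt18 had a row, at 7.59 ± 0.26 and 7.60 ± 0.15 in TNE and at 7.92 ± 0.06 and 8.27 ± 0.14 in TPIN, and neither passed the test (limma adjusted p = 0.378 and 0.0967). For both, every TNE array lay below every TPIN array, as held for 20.5% of all genes tested. Of 13 measured markers of fibroblasts and smooth muscle 10 fell in TNE, with a mean over the list of 7.81 to 8.65 in TNE and 11.42 to 11.71 in TPIN, and with Dcn, Col3a1 and Pdgfra at differences of -2.82, -2.78 and -3.37. Of 6 measured neuroendocrine markers 4 rose, with Uchl1 at 2.67, while Ncam1 and Eno2, at 0.04 and -0.79, did not pass. Uchl1 kept its call without any 1 array. Snap25 lost its call without TPIN replicate 2 or TNE replicate 2 or 3. Syt1 and Elavl4, highest in TNE replicate 3, lost theirs without any 1 TPIN array, as the fibroblast marker Pdgfra did. The neuroendocrine list mean was 9.30 to 10.89 in TNE and 7.99 to 8.54 in TPIN. The list mean of 2 measured leukocyte markers was 6.76 to 9.38 in TNE and 6.82 to 7.47 in TPIN, and that of 2 endothelial markers was 7.14 to 7.78 in TNE and 6.69 to 7.30 in TPIN. Neither leukocyte marker passed, and of the endothelial pair Cdh5 rose by 1.62 and Tek had -0.67. In TPIN the mean of the fibroblast and smooth muscle list lay above every array median of the group and both keratins lay below. In TNE that list mean and both keratins lay below, but the genes of the list were uneven. The TNE means of Dcn, Col3a1, Pdgfra and S100a4 were 10.91, 9.73, 9.24 and 9.23, above every array median of the group. Pdgfra ranged from 7.38 to 11.01 over the TNE arrays. The TNE means of the other measured genes of the list did not lie above every median, with Fap lowest at 5.35. Which cells the cultures held was not tested. No marker gives a true zero on this scale.

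The nuclear pore is a large ring of nucleoporins set in the nuclear envelope. Its scaffold is built from copies of a Y-shaped subcomplex and an inner ring, membrane nucleoporins anchor it, and nucleoporins with phenylalanine-glycine repeats line the channel. Importins carry proteins into the nucleus and exportins carry proteins and RNA out, and the direction is set by the small GTPase Ran, which is bound to GTP in the nucleus through its exchange factor Rcc1 and to GDP in the cytoplasm through the activating protein Rangap1. The pore scaffold is also disassembled and rebuilt at each mitosis in mammalian cells.

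Of the 48 members 14 rose in TNE, none fell and 34 did not pass the test. Over all genes tested, 10.3% rose and 10.2% fell. Those that rose were 5 scaffold genes of the Y complex, 2 of the inner ring, 3 of the Ran cycle, 2 importins of the beta family and 2 exportins. At an unadjusted p under 0.05 the members lower in TNE were 2, Ipo4 and Ranbp3l. A fit with array weights called 21 members higher and 5 lower, and it called 4267 of all genes tested, against 1941 in the equal-weight fit. The median difference over the 48 members was 0.66, against -0.02 over all genes tested, and 37 members had a positive difference. In 26 members every TNE array lay above every TPIN array and in 2 every TNE array lay below, whereas this held for 23.3% and 20.5% of all genes. In cultures measured in bulk, a different share of cells with these transcripts and a different amount of RNA per cell cannot be told apart. Leaving out TPIN replicate 1 or TNE replicate 2 reduced the number that rose to 7, and leaving out TNE replicate 1 reduced it to 9. Over all genes tested the number called in either direction fell too, from 1941 to 936, 832 and 1723 in these 3 fits.

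**Figure D1:**
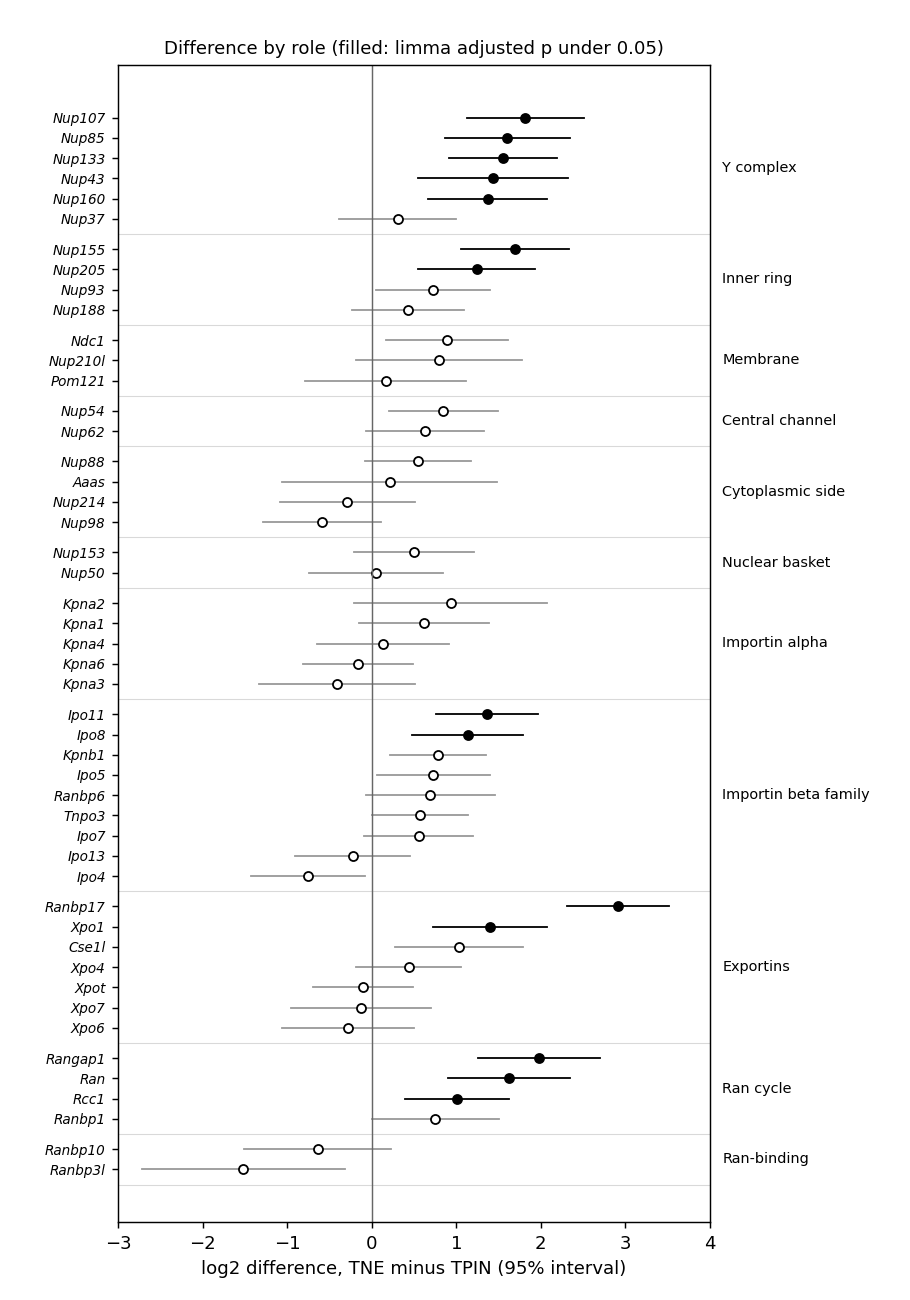
Log2 difference, TNE minus TPIN, with its 95% interval for each of the 48 members, grouped by role. Filled points passed the limma test at an adjusted p of 0.05, and all 14 of them lie to the right of 0, with 5 of the 6 genes under the Y complex among them. Nup98, which also encodes the Y complex protein Nup96, stands under the cytoplasmic side at -0.59.

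Of 6 measured genes that encode subunits of the Y complex alone 5 were higher in TNE. Nup98, which also encodes the Y complex protein Nup96 and is described with the cytoplasmic side, had a difference of -0.59 and did not pass, so the count with it is 5 of 7. Nup107, a core nucleoporin of the stem of the Y, had 10.27, 10.59 and 10.61 on the TNE arrays and 8.27, 8.71 and 9.04 on the TPIN arrays. All TNE arrays lay more than 1 log2 unit above the highest TPIN array, and the fit gave 3.53-fold higher expression (difference 1.82, SE 0.30, limma adjusted p = 0.00688). Nup133, which joins neighbouring Y complexes end to end, had 10.59, 10.68 and 10.71 in TNE and 8.78, 9.13 and 9.41 in TPIN. The 3 TNE arrays were close together, and the gene was 2.93-fold higher (difference 1.55, SE 0.28, limma adjusted p = 0.00903). Nup85, in a short arm of the Y, had 10.33, 10.61 and 10.37 in TNE and 8.50, 9.40 and 8.60 in TPIN. TPIN replicate 2 was the highest TPIN array and still below all of TNE, with a 3.04-fold difference (1.61, SE 0.32, limma adjusted p = 0.0135).

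Nup160, a large scaffold protein of the other short arm, had 10.76, 10.55 and 10.46 in TNE and 8.77, 9.28 and 9.61 in TPIN, without overlap. It was 2.58-fold higher in TNE (difference 1.37, SE 0.30, limma adjusted p = 0.0193). Nup43, a propeller-shaped subunit, had 9.80, 10.01 and 9.55 in TNE and spread more widely in TPIN, at 8.42, 9.0 and 7.64. Its 2.70-fold difference (1.43, SE 0.38, limma adjusted p = 0.0364) had the highest adjusted p among the 14 that rose. Nup37, another propeller subunit, was the exception, at 8.94 ± 0.19 in TNE and 8.64 ± 0.40 in TPIN, with overlapping groups and a difference of 0.30 (95% interval -0.39 to 1.0, limma adjusted p = 0.473). Whether Nup37 differs from the other 5 was not tested. The Y complex calls did not all hold with fewer arrays. Nup107 and Nup133 kept theirs without any 1 array, whereas Nup85 lost its call without TPIN replicate 1 or TNE replicate 2. Nup160 lost its call without TPIN replicate 1 or 2 or TNE replicate 1 or 2, and Nup43 without TPIN replicate 1 or any 1 TNE array.

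**Figure D2:**
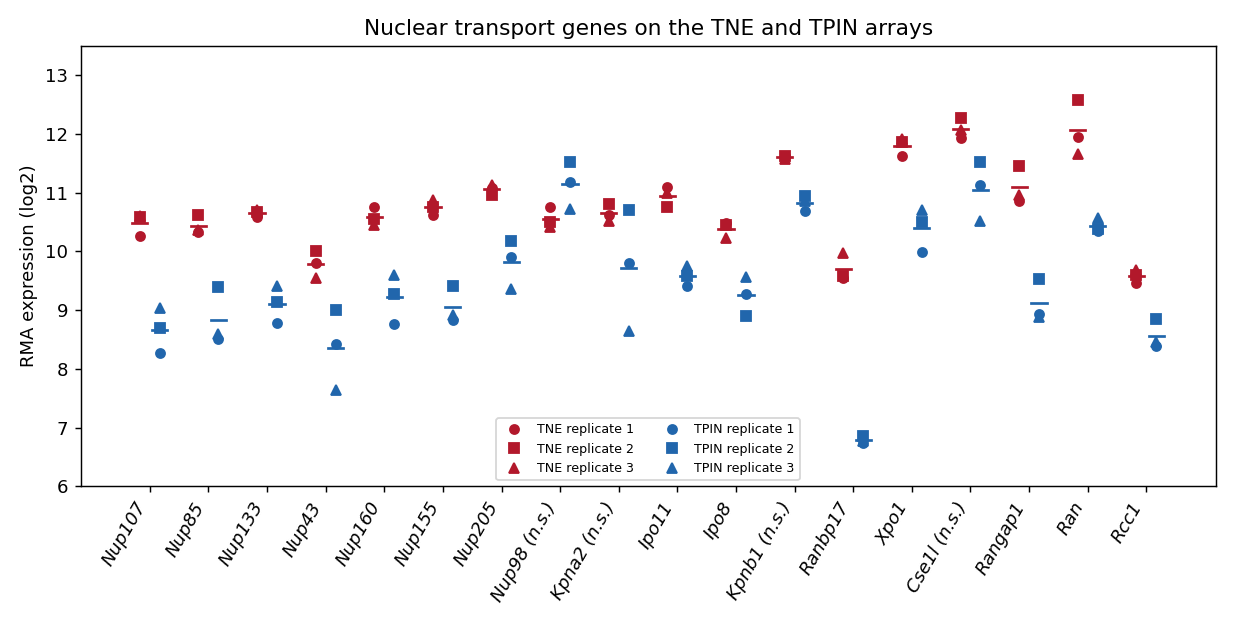
RMA expression (log2) on each array for the 14 members that passed and for Nup98, Kpna2, Kpnb1 and Cse1l, which did not (n.s.). Each symbol is 1 array, TNE on the left of each pair and TPIN on the right, short lines are group means, and Ranbp17 shows the widest gap between the groups.

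In the inner ring, which ties the scaffold to the membrane and to the channel, 2 of 4 measured genes rose. Nup155, a scaffold protein that binds membrane and linker nucleoporins, had 10.62, 10.76 and 10.87 in TNE and 8.83, 9.41 and 8.93 in TPIN. The groups were separated by more than 1 log2 unit, and the gene was 3.24-fold higher in TNE (difference 1.70, SE 0.28, limma adjusted p = 0.00675). Nup205, one of the 2 large ring-shaped scaffold proteins, had 11.09, 10.96 and 11.12 in TNE and 9.90, 10.18 and 9.36 in TPIN. It was 2.37-fold higher (difference 1.24, SE 0.30, limma adjusted p = 0.0257), a call lost without TPIN replicate 1 or any 1 TNE array. Its paralog Nup188 had 10.25 ± 0.14 in TNE and 9.83 ± 0.34 in TPIN and did not pass (difference 0.43, limma adjusted p = 0.293), and Nup93, the linker that binds both, had a difference of 0.73 (limma adjusted p = 0.107). The difference between Nup205 and Nup188 was not tested.

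Outside the scaffold no nucleoporin passed. The 3 membrane genes had differences of 0.89 for Ndc1, 0.80 for Nup210l and 0.17 for Pom121, and the channel nucleoporins Nup54 and Nup62, which carry the repeats that transport receptors bind, had 0.85 and 0.63. Ndc1, Nup54 and Nup62 did not overlap between the groups, with limma adjusted p = 0.0766, 0.0646 and 0.161. On the cytoplasmic side and in the basket the differences ran in both directions: 0.55 for Nup88, 0.21 for Aaas, -0.29 for Nup214, 0.50 for Nup153 and 0.05 for Nup50. Nup98, which encodes both a mobile repeat nucleoporin and the scaffold protein Nup96 of the Y complex, had 10.76, 10.50 and 10.41 in TNE and 11.18, 11.53 and 10.73 in TPIN. TNE replicate 1 lay just above TPIN replicate 3, and the difference of -0.59 did not pass (95% interval -1.29 to 0.11, limma adjusted p = 0.186), but it passed in the fit with array weights (limma adjusted p = 0.0296).

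The Ran cycle rose in 3 of its 4 measured genes. Rangap1, the activating protein that makes Ran hydrolyse GTP in the cytoplasm, had 10.86, 11.46 and 10.97 in TNE and 8.94, 9.53 and 8.89 in TPIN. Replicate 2 was the highest array in each group, the groups were more than 1 log2 unit apart, and the gene was 3.94-fold higher (difference 1.98, SE 0.31, limma adjusted p = 0.00576). Ran itself had 11.95, 12.57 and 11.66 in TNE and 10.36, 10.38 and 10.58 in TPIN. The TPIN arrays were close together and the TNE arrays were not, with a 3.08-fold difference (1.62, SE 0.31, limma adjusted p = 0.0116). RefSeq also lists Rasl2-9, a gene that carries Ran among its synonyms, and whether the probes of the Ran row tell the pair apart was not tested. Rcc1, the chromatin-bound exchange factor, had 9.46, 9.60 and 9.68 in TNE and 8.39, 8.86 and 8.45 in TPIN. Its groups did not overlap (2.02-fold higher, difference 1.01, SE 0.27, limma adjusted p = 0.0348), but the call held only without TPIN replicate 3 and was lost without any other 1 array. Ranbp1, which helps Rangap1 release Ran from receptors, had 12.28 ± 0.14 in TNE and 11.53 ± 0.51 in TPIN and did not pass (limma adjusted p = 0.128).

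Among exportins the largest difference of all 48 members belonged to Ranbp17, a receptor of the importin beta superfamily related to exportin 7. It had 9.55, 9.58 and 9.97 on the TNE arrays and 6.73, 6.86 and 6.78 on the TPIN arrays. The groups were more than 2 log2 units apart and the gene was 7.52-fold higher in TNE (difference 2.91, SE 0.26, limma adjusted p = 0.00108). No detection call comes with the values, so it cannot be said whether TPIN lay at background. Without any 1 array the adjusted p stayed between 0.00276 and 0.00627. Xpo7, the exportin 7 gene, had 9.64 ± 0.55 in TNE and 9.76 ± 0.33 in TPIN, a difference of -0.13 (limma adjusted p = 0.811).

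Xpo1, the exportin of proteins with a leucine-rich export signal, had 11.62, 11.86 and 11.92 in TNE and 9.99, 10.50 and 10.70 in TPIN. It was 2.65-fold higher without overlap (difference 1.40, SE 0.29, limma adjusted p = 0.0154), and lost its call without TPIN replicate 1 or TNE replicate 2. Cse1l, the exportin that returns importin alpha to the cytoplasm, had 11.93, 12.27 and 12.06 in TNE and 11.13, 11.52 and 10.51 in TPIN. All TNE arrays lay above all TPIN arrays, yet the difference of 1.03 did not pass (95% interval 0.28 to 1.79, limma adjusted p = 0.0591). Xpo4, Xpo6 and Xpot, the last a tRNA exportin, had differences of 0.43, -0.28 and -0.11.

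In the importin beta family 2 of 9 measured genes rose, beside 10.3% of all genes tested. Ipo11 had 11.11, 10.76 and 10.99 in TNE and 9.42, 9.58 and 9.75 in TPIN, a 2.58-fold difference with similar spread in both groups (1.37, SE 0.26, limma adjusted p = 0.0112) that passed without any 1 array. Ipo8, which is known to carry SMAD and Argonaute proteins, had 10.48, 10.44 and 10.23 in TNE and 9.28, 8.91 and 9.57 in TPIN. It was 2.19-fold higher (difference 1.13, SE 0.28, limma adjusted p = 0.0291), a call that held only without TPIN replicate 3 and was lost without any other 1 array. Its paralog Ipo7 had a difference of 0.55 (limma adjusted p = 0.179), and the difference between the paralogs was not tested. Kpnb1, importin beta itself, was tight within groups, at 11.63, 11.63 and 11.58 in TNE and 10.69, 10.94 and 10.86 in TPIN. Its difference of 0.78 was just short of the threshold (95% interval 0.21 to 1.36, limma adjusted p = 0.0579), and it passed with the arrays quantile-normalized again and with array weights, as Cse1l did. Ipo5, Ranbp6, Tnpo3 and Ipo13 had 0.73, 0.69, 0.57 and -0.23. Ipo4, an importin of ribosomal and histone proteins, ran the other way without overlap, at 10.02 ± 0.25 in TNE and 10.77 ± 0.31 in TPIN, and did not pass (difference -0.75, limma adjusted p = 0.0981).

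None of the 5 measured importin alpha genes, the adaptors that link cargo with a classical import signal to Kpnb1, passed. Kpna2 had 10.63, 10.81 and 10.51 in TNE and 9.80, 10.71 and 8.65 in TPIN. TPIN replicate 2 lay inside the range of TNE and TPIN replicate 3 far below it, and the difference of 0.93 had a 95% interval of -0.21 to 2.07 (limma adjusted p = 0.198). A Kpna2 pseudogene is listed in RefSeq, and whether the row reads it was not tested. Kpna1, Kpna4, Kpna6 and Kpna3 had 0.62, 0.13, -0.16 and -0.41. The remaining members bear Ran-binding names and stand outside these roles: Ranbp3l had 5.29 ± 0.15 in TNE and 6.81 ± 1.10 in TPIN (difference -1.52, limma adjusted p = 0.0719) and Ranbp10 8.45 ± 0.20 and 9.09 ± 0.67 (difference -0.64, limma adjusted p = 0.238).

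Within TPIN the order of the array means was the same for the members and for all genes tested, with replicate 2 highest and replicate 3 lowest. The means were 9.61, 9.92 and 9.47 over the members and 8.99, 9.02 and 8.92 over all genes. TPIN replicate 2 gave the highest TPIN value in 31 of 48 members (64.6%), against 30.2% of all genes tested, and TPIN replicate 3 the lowest in 26 (54.2%, against 43.3%). The members that rose and those that did not pass differed in this. Among the 14 that rose, TPIN replicates 2 and 3 were each highest in 7. In these 14 TPIN replicate 1 was lowest in 10 (71.4%, against 29.6% of all genes) and TPIN replicate 3 in 3. Among the 34 that did not pass, TPIN replicate 2 was highest in 24 and TPIN replicate 3 lowest in 23. The SD was smaller in TNE than in TPIN for 37 members (77.1%, against 55.4% of all genes). These shares are descriptions, and their difference was not tested. Of 21 measured proliferation genes 16 rose in TNE, with Pcna, Top2a and Mcm6 at 2.04, 3.14 and 2.81, and their list mean was 11.09, 11.45 and 11.33 on the TNE arrays and 8.47, 10.0 and 8.0 on the TPIN arrays. Pcna, Top2a and Mcm6 kept their calls without any 1 array, but not all of the 16 did, Mki67 among those that lost theirs. The mean over the 48 members was 10.29, 10.36 and 10.25 in TNE, with the TPIN means above, and replicate 2 was the highest of its group in both lists. The part of proliferation, or of cells with fibroblast markers, in the differences of the transport genes was not tested. Without TPIN replicate 2, 11 of the 14 members that rose still passed, and Ipo8, Nup160 and Rcc1 did not. That fit is no test of the part of proliferation, because it removes the TPIN array with the highest proliferation mean.

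**Figure D3:**
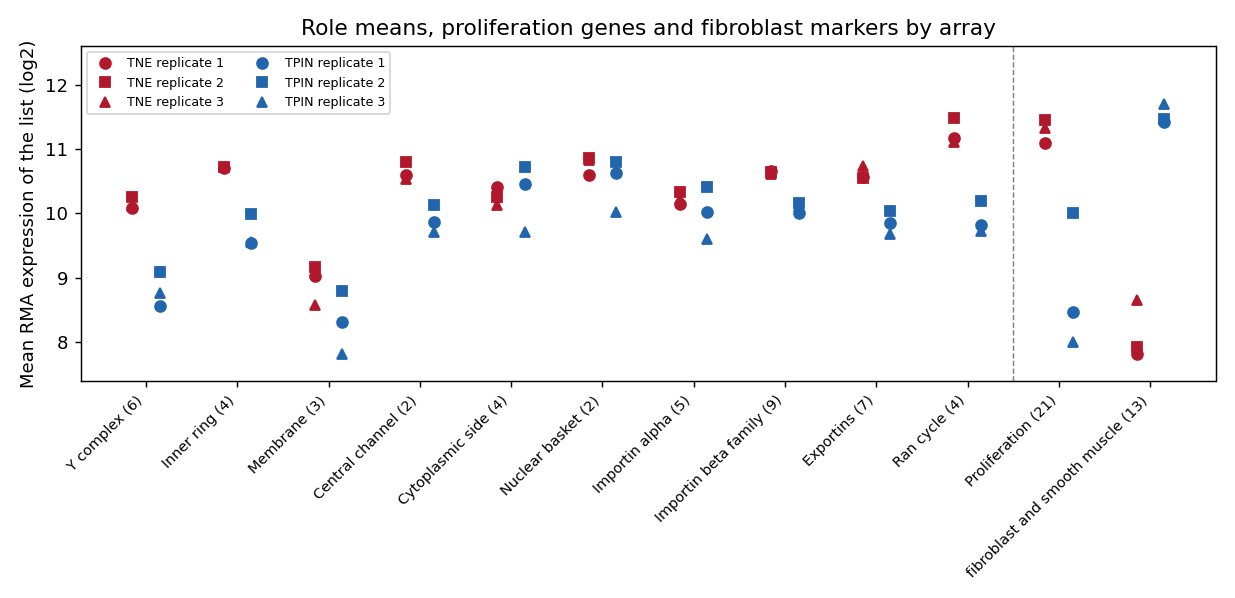
Mean RMA expression (log2) over the measured genes of each role, whose number is in parentheses, on each array, with the proliferation genes and the fibroblast and smooth muscle markers right of the dashed line. The Y complex, inner ring, central channel, importin beta family, exportin and Ran cycle means are higher on every TNE array than on every TPIN array. The other roles overlap between the groups. TPIN replicate 2 has the highest proliferation mean of its group.

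Genes around the pore that the symbol rule leaves out were counted by list, beside 10.3% of all genes tested that rose, 10.2% that fell and an all-gene median of -0.02. Of 5 measured pore partners 2 rose and none fell, with a list median of 0.12: Gle1, an mRNA export factor at the cytoplasmic face, had 10.51 ± 0.25 in TNE and 9.51 ± 0.12 in TPIN (limma adjusted p = 0.0369). Mad2l1, a spindle checkpoint protein rather than a pore subunit, had 11.83 ± 0.15 and 9.79 ± 1.04 (limma adjusted p = 0.0273). Of 13 measured genes of mRNA export 3 rose, none fell and all 13 differences were positive, with a list median of 0.74. These were the adaptor Alyref (difference 1.39), the export cofactor Nxt1 (1.01) and the cap-binding subunit Ncbp2 (1.02). Of 9 measured cargo adaptors and modifiers 1 rose, the centrin Cetn3 (difference 0.89, limma adjusted p = 0.0479), whose call was lost without any 1 array. That share, 11.1%, is near the share of all genes that rose, and the list's median was 0.66. Without TPIN replicate 1 or TNE replicate 2 none of the genes of these 3 lists passed, and no pore partner passed without TNE replicate 3. A single pore partner passed without TPIN replicate 2 or 3, and a single mRNA export gene without TPIN replicate 2 or TNE replicate 1.

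In the nuclear lamina and envelope 5 of 14 measured genes rose and 1 fell, with a list median of 0.33. The lamin genes Lmnb1 and Lmnb2, which encode B-type lamins, had 11.00 ± 0.25 and 9.41 ± 0.12 in TNE and 8.27 ± 0.45 and 8.19 ± 0.11 in TPIN (limma adjusted p = 0.00221 and 0.0150). Lbr, the lamin B receptor, Tmpo, a lamina-associated protein, and Syne2, which links the nucleus to the cytoskeleton, were higher by 1.74, 1.82 and 2.93. Tor1aip1, another lamina-associated membrane protein, was lower by a difference of -1.40 (limma adjusted p = 0.0454), a call lost without TPIN replicate 1 or 2 or TNE replicate 2 or 3. Without TNE replicate 2 the number that rose was 3.

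**Figure D4:**
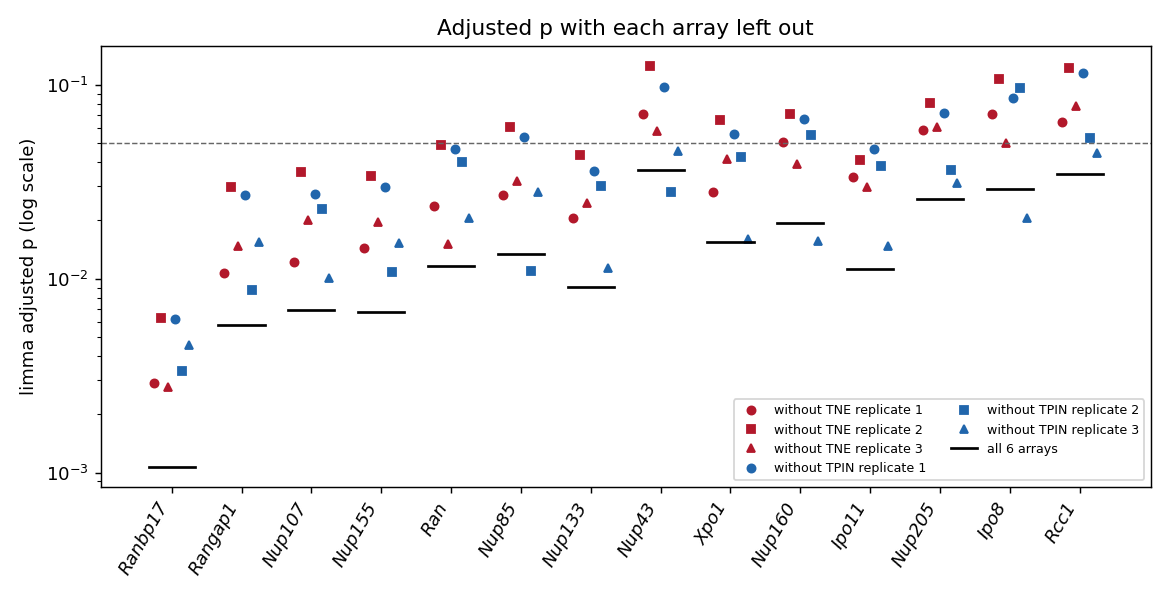
Limma adjusted p (log scale) of the 14 members that rose, with all 6 arrays (black lines) and with each array left out (symbols). The dashed line marks 0.05: Ranbp17, Rangap1, Nup107, Nup155, Ran, Nup133 and Ipo11 stay below it throughout, and the others cross it without at least 1 array.

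Leaving out single arrays split the 14 members that rose evenly. Ranbp17, Rangap1, Nup107, Nup155, Ran, Nup133 and Ipo11 passed in all 6 such fits, with Ran closest to the threshold at an adjusted p of 0.0492 without TNE replicate 2. Nup85, Nup43, Xpo1, Nup160, Nup205, Ipo8 and Rcc1 lost their call without at least 1 array. No such fit changed the direction of any of the 14.

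Promoter sequence was available from RefSeq for 38 of the 48 members, as 42 windows of build GRCm38.p6 that run from 250 bases before to 50 bases after a gene's start. Windows were searched on both strands for CCAAT, for the cell cycle homology element (TTTGAA or TTCGAA), for E2F sites (TTTGGCGC or TTTCGCGC), for the E-box CACGTG and for the palindromic consensus site of Nrf1, a regulator of nuclear-encoded respiratory genes. The Nrf1 letters were in 4 of the 42 windows (9.52%), against 0.971% of all RefSeq windows and 1.95% of the windows of genes tested, and the E-box in 7 (16.7%), against 7.15% and 10.0%. CCAAT was in 42.9%, against 37.4% and 37.6%, and the cell cycle element in 28.6%, against 19.2% and 14.4%. An E2F site was in 1 window (2.38%), against 0.813% and 1.60%, and a share that rests on 1 window shows no difference. The windows of 12 members that rose held the Nrf1 letters in 2, CCAAT in 3, the cell cycle element in 3, the E-box in 1 and no E2F site. The 30 windows of members that did not pass held them in 2, 15, 9 and 6, with 1 E2F site. A match is a description of letters and not of a binding site. The 3 windows below belong to members that rose by over 1 log2 unit: Ran and Nup107 are shown because they hold the Nrf1 letters and Xpo1 because it holds CCAAT at 2 places, with each match in capitals, and no matches overlap.
Ran, chr5:129019906-129020205, plus strand: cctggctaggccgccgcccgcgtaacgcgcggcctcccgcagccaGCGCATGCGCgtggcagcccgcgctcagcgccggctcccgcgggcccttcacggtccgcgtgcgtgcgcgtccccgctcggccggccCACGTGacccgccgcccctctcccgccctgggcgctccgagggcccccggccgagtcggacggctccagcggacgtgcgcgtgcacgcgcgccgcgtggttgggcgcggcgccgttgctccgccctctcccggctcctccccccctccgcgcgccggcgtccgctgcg
Nup107, chr10:117792656-117792955, minus strand: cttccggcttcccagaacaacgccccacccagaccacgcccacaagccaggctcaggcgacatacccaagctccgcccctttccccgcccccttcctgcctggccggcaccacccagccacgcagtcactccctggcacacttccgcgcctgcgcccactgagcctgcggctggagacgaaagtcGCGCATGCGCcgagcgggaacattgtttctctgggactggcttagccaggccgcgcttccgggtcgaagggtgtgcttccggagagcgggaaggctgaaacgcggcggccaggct
Xpo1, chr11:23255791-23256090, plus strand: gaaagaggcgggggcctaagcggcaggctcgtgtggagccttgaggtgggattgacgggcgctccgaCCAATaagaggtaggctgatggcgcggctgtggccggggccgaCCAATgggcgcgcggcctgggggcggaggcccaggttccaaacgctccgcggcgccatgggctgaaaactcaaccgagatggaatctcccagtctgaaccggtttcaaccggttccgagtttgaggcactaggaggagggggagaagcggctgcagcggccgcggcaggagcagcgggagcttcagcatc
In the Ran window the Nrf1 letters begin at -205 and the E-box at -118 relative to the start. In Nup107 the Nrf1 letters begin at -65, and in Xpo1 CCAAT begins at -183 and -140. These 3 genes were 3.08-fold, 3.53-fold and 2.65-fold higher in TNE, and a link between the letters and the rise was not tested. CCAAT was in 25% of the windows of members that rose and in 50% of those that did not pass. For the E-box these shares were 8.33% and 20%. The Nrf1 shares, 16.7% and 6.67%, rest on 2 windows each.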

How the data were processed

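RNA was measured on 6 single-colour arrays, 3 TNE and 3 TPIN, grouped by sample title, which the cell type labels match. A free-text field goes against them, as it names intraepithelial neoplasia for all 6 samples, the TNE samples included. Per the submitters' processing notes, the authors used RMA, and the deposited values are on a log2 scale. The RMA version was not stated. The 10361 rows cover part of the array, and how they were selected is unknown. In the array annotation 9496 rows had 1 symbol, 374 had more than 1 and 491 had none. Rows with 1 symbol were kept, with the row of highest mean for 6 genes with more than 1, which left 9490 genes. All 48 members matched RefSeq by Entrez identifier. The array's build is not named, so no coordinates are given for its rows, and those of the promoter windows are RefSeq coordinates of GRCm38.p6.

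The comparison of TNE with TPIN used limma 3.58.1 (R 4.3.3; lmFit, a mean per group, eBayes), two-sided, with Benjamini-Hochberg adjustment over 9490 genes and a threshold of 0.05. Folds are powers of the log2 difference on the RMA scale, which narrows differences near background. Tested on simulated data with 200 of 9490 genes changed, the fit recovered 6.20% of genes at a log2 difference of 1, 56.1% at 2, 79.4% at 3 and 89.5% at 4, with 4.30% false calls. In the data 1941 genes (20.5%) were called, and the simulated noise was independent between genes. The adjusted p depends on the share of genes that change, so these rates need not hold for this comparison. No 2 arrays held duplicate data, with at most 0.106% identical values in any pair. With 3 arrays a group, precision is limited by their number.

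The members, roles and lists were chosen with earlier results of these data known. Values per array were given for members past the threshold and for Kpnb1, Kpna2, Cse1l and Nup98. Of the pathway lists, genes past the threshold were named, and of the marker lists, the 3 of highest mean. A few members outside that rule were given per group for comparison with a paralog. Alternatives were the mean of a gene's rows, dim rows left out (the lowest 25% by mean), quantile normalization again, centring on array medians, a trended robust prior, array weights, and each array left out. The replicate numbers follow the order of the series and pair no samples.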

Additional observations from a re-analysis of the deposited data

How the results depend on the processing

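The 14 members that rose passed the threshold in every planned setting that kept all 6 arrays, and none of them changed direction in any setting. Ranbp3l and Nup210l were not tested with dim rows left out. With the arrays quantile-normalized again Cse1l and Kpnb1 passed as well (16 in all), and with array weights 21 rose and 5 fell. Those 5 were Ipo4, Kpna3, Nup98, Ranbp10 and Ranbp3l, and the same setting called 4267 of all genes tested, against 1941 in the equal-weight fit. The weights were unequal, from 0.345 for TPIN replicate 3 to 3.26 for TNE replicate 2. With single arrays left out the number that rose was 7 to 14, the number that fell 0 to 1 (Ranbp10, without TPIN replicate 3), and the number called among all genes 832 to 2596. Members with small differences turned sign: Xpot to 0.011 with quantile normalization, and Aaas to -0.11 with array weights. With single arrays left out Aaas ranged from -0.42 to 0.60, Kpna4 from -0.13 to 0.34, Nup50 from -0.24 to 0.21, Pom121 from -0.20 to 0.45 and Xpo7 from -0.43 to 0.11, and none of the 5 passed. The cause of these changes was not tested. In the same fits the number that rose was 0 to 2 for pore partners, 0 to 3 for mRNA export, 0 to 1 for cargo adaptors and 3 to 5 for the lamina and envelope, where the number that fell was 0 to 1. The median difference over the members was 0.53 to 0.74 over all settings. No paired analysis was possible because the replicate numbers follow the order of the series and the labels pair no samples. No detection call comes with the arrays, so signal over background is unknown, and the rows are part of the array.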
